A study of Mus musculus with 20 samples.

Results

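The genes described are 10 of the 17097 genes named on the array, chosen by symbol as members of the ATF4 and amino acid stress response: Atf4, Ddit3, Trib3, Chac1, Asns, Psat1, Phgdh, Shmt2, Slc7a11 and Hspa5. The array carries 16 probe sets for them among 45141, and 15 of the 16 passed the filter on low values, the exception being a second probe set of Atf4. Values of a gene are those of its brightest probe set on average unless another is named.

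The integrated stress response begins when a kinase that senses amino acid shortage, misfolded protein, viral RNA or lack of heme phosphorylates the translation factor eIF2. General translation then slows while the mRNA of ATF4 is translated better, and ATF4, a bZIP transcription factor, switches on genes for amino acid synthesis and uptake together with Ddit3, which encodes the factor CHOP. Because much of this control acts on translation, the level of Atf4 mRNA is an incomplete readout of ATF4 protein. Hspa5 encodes BiP, the main chaperone of the endoplasmic reticulum and a target of the neighbouring unfolded protein response.

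Expression was measured on 20 Affymetrix mouse arrays, 1 per sample. The 6 CDS tumors were individual sarcomas that formed under the skin of Balb/c nude mice after transplantation of embryonic mesenchymal cells (eMC) transduced with CIC-DUX4, a fusion of the repressor CIC with the transcription factor DUX4. The 6 ES tumors were mouse Ewing sarcomas, likewise grown subcutaneously in Balb/c nude mice, and their driver is not given in the sources used here. The 4 eMC CIC-DUX4 samples were primary mesenchymal cells in Iscove's medium with fetal bovine serum, spinofected with the retrovirus pMYs-CIC-DUX4-IRES-GFP, and the 4 eMC empty samples received pMYs-IRES-GFP; both were collected 48 hours after transduction. Tumors received no treatment. The labels do not give ages, the share of transduced cells, or whether the eMC samples are separate cultures; p-values therefore reflect only the spread among these samples, which may be technical.

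The promoter windows of all 10 genes, taken from RefSeq on GRCm38.p6 and running from 250 bases before to 50 bases after the start of the transcript, were searched on both strands for 2 motifs. TGATGNAA is the core of the C/EBP-ATF response element that ATF4 binds as a partner of C/EBP factors, and it occurred in 3.97% of 32851 windows. The endoplasmic reticulum stress response element, read by ATF6 with NF-Y, is CCAAT and CCACG with 9 bases of any kind between them, and it occurred in 0.119% of windows. The first motif was present in the windows of Asns (chr6:7693160-7693459, minus strand), Trib3 (chr2:152344011-152344310, minus strand), Chac1 (chr2:119350992-119351291, plus strand) and Slc7a11 (chr3:50443564-50443863, minus strand), and the second in that of Hspa5 (chr2:34771840-34772139, plus strand). These 5 windows are shown 5′ to 3′ along the gene's strand, because they are the ones that hold a known element of the pathway, with the motif in capitals:
Asns: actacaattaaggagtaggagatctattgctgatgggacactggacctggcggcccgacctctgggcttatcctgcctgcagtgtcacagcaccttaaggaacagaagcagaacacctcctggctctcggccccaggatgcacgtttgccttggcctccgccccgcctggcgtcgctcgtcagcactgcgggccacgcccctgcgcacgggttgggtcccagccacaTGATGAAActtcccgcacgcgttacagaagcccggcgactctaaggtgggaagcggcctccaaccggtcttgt
Trib3: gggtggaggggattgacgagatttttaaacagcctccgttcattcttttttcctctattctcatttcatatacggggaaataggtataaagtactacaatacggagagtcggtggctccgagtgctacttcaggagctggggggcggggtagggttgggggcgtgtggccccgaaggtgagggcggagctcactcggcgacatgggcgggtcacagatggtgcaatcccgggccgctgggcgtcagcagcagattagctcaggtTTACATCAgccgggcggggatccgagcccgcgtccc
Chac1: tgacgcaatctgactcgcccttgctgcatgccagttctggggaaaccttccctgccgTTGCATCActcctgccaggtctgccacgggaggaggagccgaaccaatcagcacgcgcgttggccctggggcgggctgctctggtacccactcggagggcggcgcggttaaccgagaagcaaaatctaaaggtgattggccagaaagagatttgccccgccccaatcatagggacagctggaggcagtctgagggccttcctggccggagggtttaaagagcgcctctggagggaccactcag
Slc7a11: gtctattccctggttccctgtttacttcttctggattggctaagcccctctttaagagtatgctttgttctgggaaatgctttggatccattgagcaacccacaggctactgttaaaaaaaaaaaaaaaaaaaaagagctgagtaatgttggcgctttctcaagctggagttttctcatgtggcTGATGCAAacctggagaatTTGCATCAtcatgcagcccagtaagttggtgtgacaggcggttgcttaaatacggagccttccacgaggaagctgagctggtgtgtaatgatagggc
Hspa5: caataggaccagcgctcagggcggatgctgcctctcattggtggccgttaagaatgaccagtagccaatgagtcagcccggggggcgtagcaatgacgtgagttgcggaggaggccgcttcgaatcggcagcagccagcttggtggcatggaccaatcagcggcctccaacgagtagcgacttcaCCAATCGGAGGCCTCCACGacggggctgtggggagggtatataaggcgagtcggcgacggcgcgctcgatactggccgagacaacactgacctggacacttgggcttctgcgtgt

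The Asns motif began 23 bases before the start, and Slc7a11 held a match on each strand, 66 and 47 bases before it. The Chac1 match lay 193 bases before the start and was read on the opposite strand, as was the Trib3 match, which lay 14 bases after the start base. In Hspa5 the stress element began 65 bases before the start. The windows of Atf4, Ddit3, Psat1, Phgdh and Shmt2 held neither motif. A match is a string of letters in this window and was not tested for binding.

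The deposited values are log2 signals whose distributions differ between arrays. The 75th percentile of log2 signal ranged from 4.10 to 8.95, and 3 arrays had a high median (5.63 in CDS tumor 2, 6.10 in eMC CIC-DUX4 5 and 7.03 in eMC CIC-DUX4 6, against 1.85 to 3.88 elsewhere). Comparisons were therefore made as deposited and after quantile normalization. The latter forces 1 distribution on all arrays and so removes any real difference in distribution too. Where a fold change is given once, it is as deposited unless another scale is named. A gene is called at an adjusted p under 0.05 and a log2 change of 1 or more in either direction. The test was limma, with Benjamini-Hochberg adjustment over the 26895 probe sets that passed the filter. The dip is the signal of lowest density between the dim and bright parts of an array, and signals below it are close to background; eMC CIC-DUX4 6 had no dip. The 5 markers of CIC-DUX4 sarcoma (Etv1, Etv4, Etv5, Muc5ac and Vgf) were above the dip in all 6 CDS tumors, Etv1 and Etv5 also in all 6 ES tumors, whereas the 7 Ewing sarcoma markers were mixed in ES tumors: Cd99l2 was above it in 6 of 6, Prkcb, Steap1 and Bcl11b in 5 of 6 each, Nkx2-2 in 1 of 6, and Nr0b1 and Npy in 0 of 6. Of 8 mesenchymal markers, 8 were above the dip in every eMC CIC-DUX4 array that had one and 3 in every eMC empty array. These counts use unlike thresholds, since the dips were 3.36 to 4.45 in eMC CIC-DUX4 and 5.39 to 8.19 in eMC empty. Summed linear signals of the 8 were 35309 to 48195 in eMC CIC-DUX4 and 69708 to 118332 in eMC empty as deposited. After quantile normalization they were 58696 to 60768 and 57168 to 58339.

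**Figure D1:**
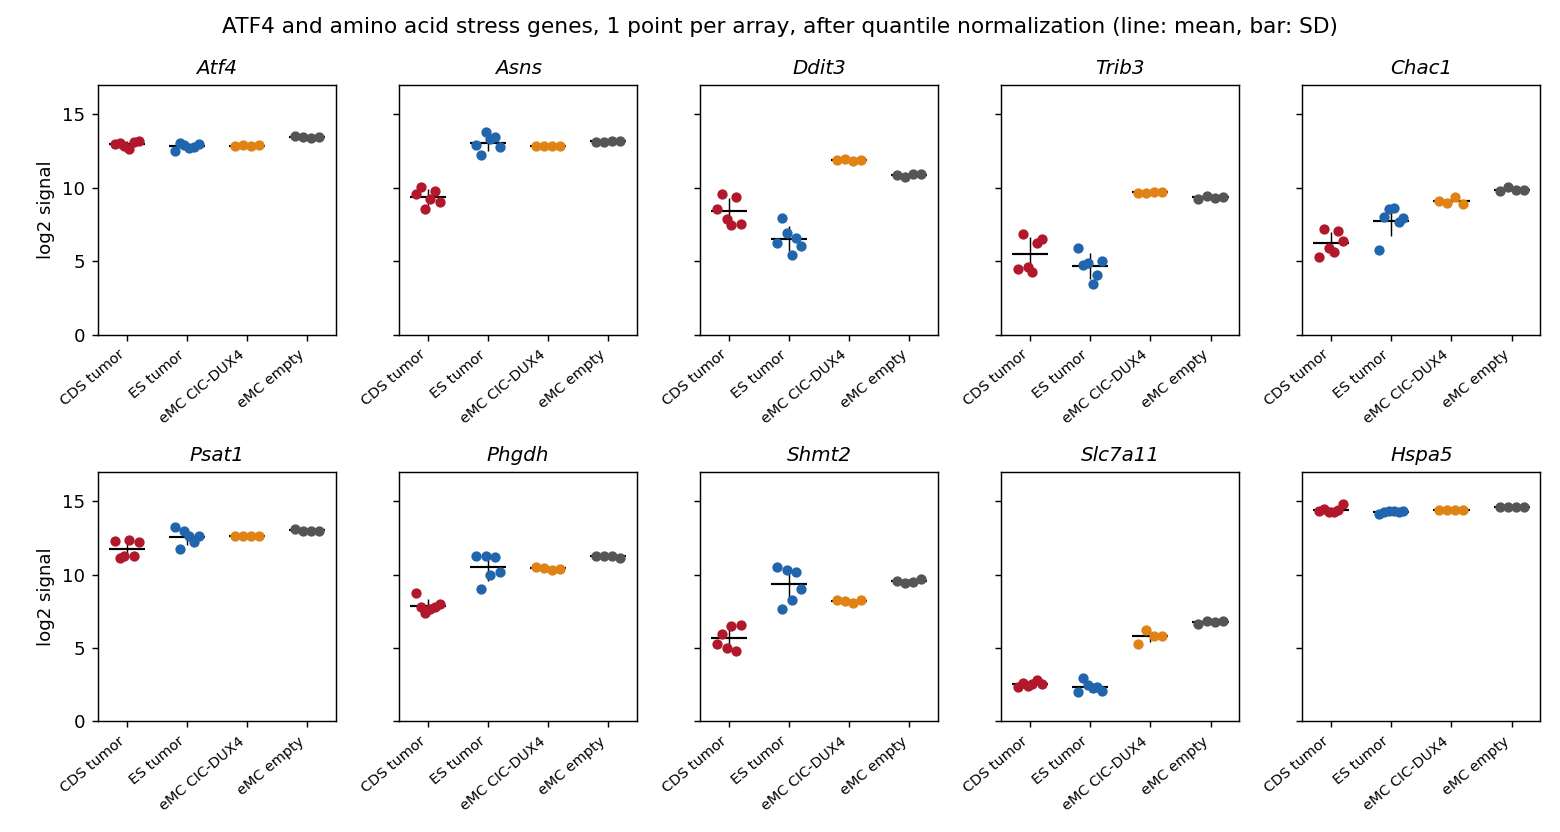
Log2 signal of the 10 genes after quantile normalization, 1 point per array, in CDS tumors, ES tumors, eMC CIC-DUX4 and eMC empty; the line is the mean and the bar the SD. Asns lies between 8.55 and 10.06 in CDS tumors, below all other arrays, while Hspa5 spans only 14.14 to 14.82 over the 20 arrays.

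CDS tumors carried less mRNA of Asns, Phgdh and Shmt2 than ES tumors, and no gene of the 10 was higher on both scales. Asns, Phgdh and Shmt2 make asparagine, serine and glycine with one-carbon units, and the corresponding genes were lower in CDS tumors on both scales. As deposited, 3 of 10 genes were called lower, against 9.85% of all genes tested, and 0 higher, against 11.2%; after quantile normalization 4 were lower, against 16.2% of all genes, and 1 was higher, against 16.8%. The same 3 enzymes were called lower on both scales, against 9.72% of all genes. In these bulk samples fewer cells of a type and less RNA per cell cannot be told apart.

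Asns, asparagine synthetase, had a lowest, median and highest log2 signal of 6.60, 9.60 and 10.46 in the 6 CDS tumors and 12.23, 13.06 and 13.43 in the 6 ES tumors. The highest CDS tumor thus lay below the lowest ES tumor. Asns fell by 3.71 ± 0.51 on the log2 scale (SE) in CDS tumors, 13.0-fold, with an adjusted p of 3.82e-05. After quantile normalization CDS tumors ran from 8.55 to 10.06 and ES tumors from 12.25 to 13.82, again without overlap, and the difference was -3.70 ± 0.30 (adjusted p = 4.30e-07).

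Phgdh encodes phosphoglycerate dehydrogenase, the first enzyme of serine synthesis, and its values come from a probe set of a type that can cross-hybridise. Its lowest, median and highest log2 signals were 5.44, 8.51 and 9.16 in CDS tumors against 9.72, 10.94 and 11.34 in ES tumors, so the groups did not overlap. The difference was -3.01 ± 0.68 as deposited (adjusted p = 0.00412) and -2.59 ± 0.40 after quantile normalization (adjusted p = 0.000166). A second probe set of Phgdh gave -4.42 ± 0.83 as deposited (adjusted p = 0.000986) in the same direction.

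Shmt2, the mitochondrial enzyme that converts serine to glycine, had 3.52, 4.58 and 8.33 in CDS tumors as lowest, median and highest log2 signal, and 8.55, 10.21 and 10.73 in ES tumors. The groups did not overlap, and 4 of the 6 CDS tumors lay below the dip, so the fold rests partly on signals near background. The difference was -4.41 ± 0.94 as deposited (adjusted p = 0.00290) and -3.65 ± 0.54 after quantile normalization (adjusted p = 0.000105). Of the other probe sets of Shmt2, both of that cross-hybridising type, 1 was also called lower (-2.59 ± 0.83 as deposited) and the other was not (-0.90 ± 0.97).

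Psat1, which takes the step after Phgdh in serine synthesis, ranged from 11.06 to 12.43 in CDS tumors and 11.78 to 13.20 in ES tumors. The ranges overlapped and Psat1 was not called: -0.72 ± 0.32 as deposited (95% interval -1.38 to -0.05, adjusted p = 0.107) and -0.79 ± 0.29 after quantile normalization (adjusted p = 0.0455, under the fold threshold). Atf4 itself ran from 12.33 to 13.91 in CDS tumors and 12.51 to 12.88 in ES tumors. Its difference was 0.36 ± 0.25 as deposited (95% interval -0.15 to 0.88) and 0.14 ± 0.13 after quantile normalization, neither of which was called.

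Among the stress effectors the scales disagreed. Ddit3 (CHOP, a pro-apoptotic bZIP factor) had 5.06, 8.68 and 10.21 in CDS tumors against 3.49, 7.59 and 8.79 in ES tumors, with wide overlap, and its difference of 0.82 ± 1.02 was not called; after quantile normalization it was 1.87 ± 0.49 (adjusted p = 0.00758) and called higher. Chac1, an enzyme that degrades glutathione, was called lower after quantile normalization (-1.51 ± 0.50, adjusted p = 0.0283) and not as deposited (-2.75 ± 1.00, adjusted p = 0.0542). Trib3, a pseudokinase that binds ATF4 and CHOP and dampens their activity, differed by 0.61 ± 1.09 as deposited and 0.82 ± 0.55 after quantile normalization and was called on neither scale.

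Slc7a11, the cystine-importing subunit of system xc-, lay below the dip in all 6 CDS and all 6 ES tumors, so no fold is given. Hspa5 ran from 13.67 to 15.62 in CDS tumors and from 13.86 to 14.19 in ES tumors. Its difference of 0.57 ± 0.25 as deposited (adjusted p = 0.0963) shrank to 0.15 ± 0.10 after quantile normalization (95% interval -0.06 to 0.35), and it was not called.

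Summed linear signals of 7 endothelial markers were 4479 to 8753 in CDS tumors and 367 to 4213 in ES tumors, without overlap, and 1 of the 6 tested was called higher on both scales. Those of 8 mesenchymal markers were 31900 to 118755 in CDS tumors and 15145 to 35304 in ES tumors, with 3 called higher and 1 lower on both scales. Of all genes, 9.37% were called higher and 9.72% lower on both scales. Macrophage sums (12833 to 74163 in CDS tumors and 19119 to 57433 in ES tumors) and skeletal muscle sums (522 to 226321 in CDS tumors and 18.7 to 152835 in ES tumors) overlapped, and 0 of either list were called on both scales. The excess of the 3′ over the 5′ probe set of Actb, a sign of RNA degradation, averaged 0.80 ± 0.36 in CDS tumors and 0.25 ± 0.05 in ES tumors (log2, SD, n = 6 each) and was largest in CDS tumors 5 and 6, at 1.16 and 1.28. The part of endothelium, mesenchymal content and RNA quality in the differences was not tested. Without CDS tumors 5 and 6 the same 3 enzymes were called lower as deposited, with -3.00 for Asns, -1.96 for Phgdh and -3.96 for Shmt2. Without CDS tumor 2 they were -3.95, -3.29 and -4.96, and Chac1 was called as well (-3.36, adjusted p = 0.0190).

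**Figure D2:**
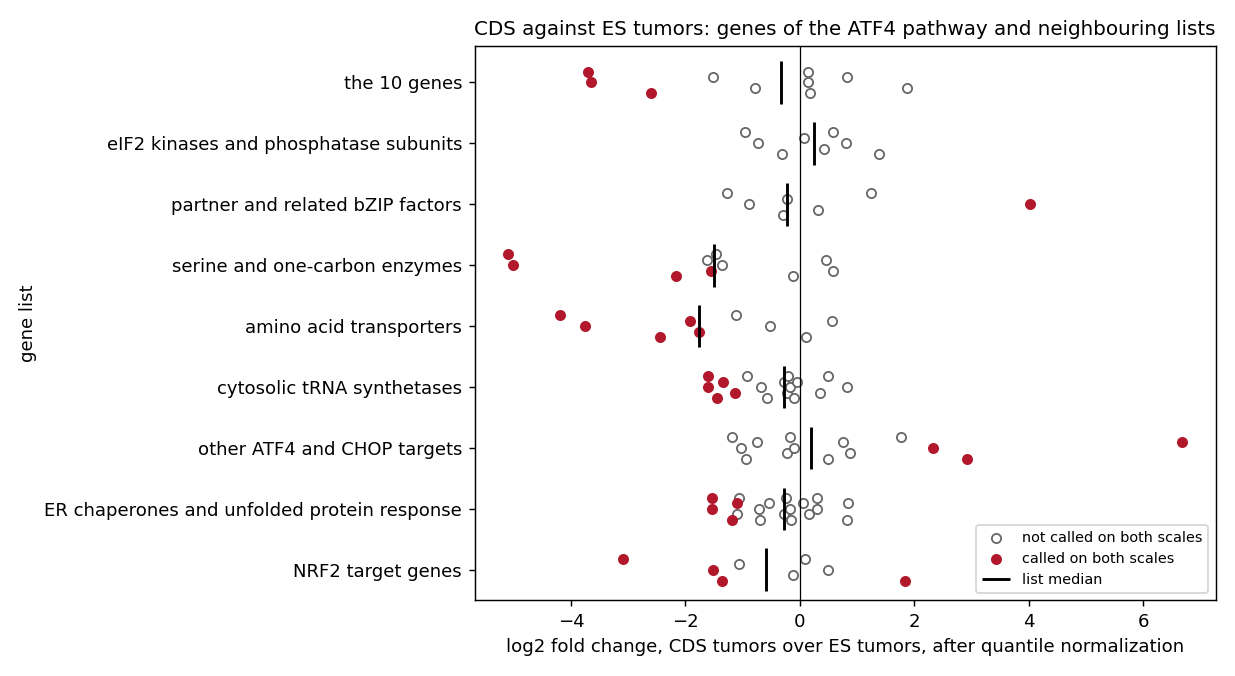
Log2 fold change of CDS over ES tumors after quantile normalization for the 10 genes and the 8 pathway lists, 1 point per gene, filled where called on both scales; black lines are list medians. Transporters and serine and one-carbon enzymes have medians of -1.77 and -1.51, and Vldlr is the point farthest to the right, at 6.67.

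The wider pathway was read from 8 lists that leave out the 10 genes. Of 10 other enzymes of serine, folate and amino acid metabolism, 4 were called lower in CDS than in ES tumors on both scales and 0 higher, where 9.72% of all genes were lower and 9.37% higher. Bcat1, a branched-chain aminotransferase, averaged 5.71 ± 1.97 in CDS tumors and 11.14 ± 0.41 in ES tumors (log2 signal, SD, n = 6 each), a difference of -5.44 ± 0.79 as deposited and -5.02 ± 0.39 after quantile normalization. Gpt2, alanine transaminase, differed by -5.33 ± 0.87 and -5.09 ± 0.52, and Mthfd1, a folate enzyme, by -2.28 ± 0.57 and -2.17 ± 0.26. Bcat1 and Gpt2 averaged 5.71 and 5.68 in CDS tumors, whose dips ran from 4.02 to 8.09. The size of these 2 changes may thus rest partly on signals near background. The list medians were -1.30 and -1.51, where the median of all genes was 0.02 and -0.03.

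Amino acid transporters showed 5 of 9 lower on both scales and 0 higher. The arginine and lysine carriers Slc7a3 and Slc7a1 differed by -4.36 ± 1.17 and -2.70 ± 0.59 as deposited, and by -4.19 ± 0.65 and -2.45 ± 0.29 after quantile normalization. Slc7a3 averaged 2.93 in CDS tumors, under their lowest dip of 4.02, so the size of its change rests on signals near background. Slc38a1, a glutamine carrier, differed by -3.89 ± 0.59 and -3.76 ± 0.37. It averaged 7.74 in CDS tumors, under their highest dip of 8.09. Of 17 cytosolic tRNA synthetases, 5 were lower and 0 higher, among them Farsa (-1.93 ± 0.63 as deposited), Farsb (-1.82 ± 0.50) and Gars (-1.25 ± 0.29).

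Of 19 chaperones and factors of the unfolded protein response, 4 were lower and 0 higher, including the sensor Atf6 (-2.69 ± 0.87 as deposited), Creld2 (-1.69 ± 0.41) and the disulfide isomerase Pdia4 (-1.43 ± 0.47). Of 14 other ATF4 and CHOP targets, 3 were higher on both scales and 0 lower, with 2 lower after quantile normalization alone and list medians of 0.61 as deposited and 0.19 after it. As deposited, the 3 were the lipoprotein receptor Vldlr at 7.52 ± 0.99, the oxidase Ero1a at 2.33 ± 0.40 and the angiogenic factor Vegfa at 2.13 ± 0.38. Vldlr averaged 3.50 in ES tumors, under their lowest dip of 4.48, so the size of its change rests partly on signals near background. Vegfa and Vldlr are also known to respond to hypoxia. Of 8 NRF2 targets, 3 were lower, including glutathione reductase Gsr (-3.68 ± 0.85) and the glutathione synthesis subunit Gclc (-2.57 ± 0.89), and 1 was higher, the sulfiredoxin Srxn1 (3.23 ± 0.89 as deposited, 1.84 ± 0.49 after quantile normalization). Srxn1 averaged 2.67 in ES tumors, also under their lowest dip. Atf6, Gsr and Gclc averaged 6.63, 6.34 and 6.18 in CDS tumors, within the range of the dips there, 4.02 to 8.09. The size of their changes may thus rest partly on signals near background. Of 7 related bZIP factors only Jdp2, a repressor, was called on both scales (4.40 ± 1.24), and of 8 eIF2 kinases and phosphatase subunits 0 were. Jdp2 averaged 4.84 in ES tumors, whose dips ran from 4.48 to 5.53.

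Between eMC CIC-DUX4 and eMC empty, collected 48 hours after transduction, Atf4, Asns, Psat1, Phgdh and Hspa5 were lower and Ddit3 and Trib3 higher at an adjusted p under 0.05 on both scales, and of these only Ddit3 also passed the fold threshold on both. Without the fold threshold, 5779 of 12343 genes were higher and 1447 lower at that adjusted p as deposited. After quantile normalization 7397 genes had an unadjusted p under 0.05 (limma). The share of all genes under the adjusted threshold on both scales was not counted. As deposited, the all-gene median of the log2 fold change of eMC CIC-DUX4 over eMC empty was 2.07, and on the quantile scale 0.01. Ddit3, Trib3 and Slc7a11 were called higher as deposited, against 46.4% of all genes, and Atf4, Asns, Psat1 and Hspa5 lower, against 4.62%. These lower genes averaged 13.49 to 15.28 in eMC empty, at the bright end of the arrays, which itself differed between the groups. The top percentile of log2 signal began at 14.25 to 15.07 in eMC empty and at 13.22 to 13.67 in eMC CIC-DUX4. The 4.62% covers genes of any brightness. The share among equally bright genes was not counted, and the part of this shift in the lower calls was not tested. After quantile normalization only Ddit3 was higher, against 8.13% of all genes, and only Shmt2 lower, against 4.81%. Ddit3, 1 of 10, was called higher on both scales, a share close to the 7.74% of all genes, and 0 of 10 were lower on both, against 0.381%.

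Ddit3 had 11.52, 11.62, 11.73 and 11.80 log2 signal in the 4 eMC CIC-DUX4 arrays and 9.64, 10.65, 10.99 and 11.04 in the 4 eMC empty arrays. All eMC CIC-DUX4 arrays were above all eMC empty arrays. Its difference was 1.09 ± 0.32 as deposited (adjusted p = 0.0161), which lies 0.99 below the all-gene median (-0.99), and 1.00 ± 0.06 after quantile normalization (adjusted p = 5.03e-08). The call was narrow: without eMC empty 5 the difference was 0.77 as deposited and 0.95 after quantile normalization, and without eMC CIC-DUX4 5 and 6 it was 1.18 (adjusted p = 0.0765) and 0.98, none of which was called.

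Atf4 had 12.31, 12.42, 12.64 and 12.70 in eMC CIC-DUX4 and 13.62, 13.86, 14.22 and 14.37 in eMC empty, without overlap. Its difference was -1.50 ± 0.18 as deposited (adjusted p = 7.82e-05) and -0.58 ± 0.03 after quantile normalization (adjusted p = 1.59e-08), the second under the fold threshold. Hspa5 had 13.53, 13.73, 13.96 and 13.98 in eMC CIC-DUX4 and 14.84, 15.18, 15.40 and 15.69 in eMC empty, also without overlap. Its difference was -1.48 ± 0.17 as deposited and -0.18 ± 0.02 after quantile normalization, so most of it was absent once the arrays shared a distribution.

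Asns and Psat1 followed the same pattern in eMC. Asns differed by -1.16 ± 0.16 as deposited and -0.31 ± 0.03 after quantile normalization, and Psat1 by -1.19 ± 0.17 and -0.39 ± 0.04. Phgdh was under the fold threshold on both scales, at -0.58 ± 0.20 and -0.82 ± 0.06. All 3 were thus on the same side of 0 on both scales, with the size set by the scale.

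Direction itself depended on the scale for Slc7a11, Shmt2 and Chac1. Slc7a11 had 7.26, 7.65, 7.83 and 8.49 in eMC CIC-DUX4 and 4.01, 4.32, 4.63 and 5.03 in eMC empty, where all 4 arrays were below the dip, so no fold is given. The fitted difference was 3.31 ± 0.42 as deposited (adjusted p = 0.000133), whereas after quantile normalization it was -0.99 ± 0.20 and not called. Shmt2 had 9.23, 9.28, 9.38 and 9.45 in eMC CIC-DUX4 and a wide 5.84, 7.32, 9.40 and 10.11 in eMC empty. It was 1.17 ± 0.83 as deposited, not called, and -1.33 ± 0.11 after quantile normalization (adjusted p = 7.23e-07). Chac1 was 1.05 ± 0.68 and -0.81 ± 0.11, called on neither scale, and Trib3 was 2.59 ± 0.89 (adjusted p = 0.0330) and 0.32 ± 0.08. Trib3 and Shmt2 were each above the dip in 2 of 4 eMC empty arrays, so their changes rest partly on signals near background.

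**Figure D3:**
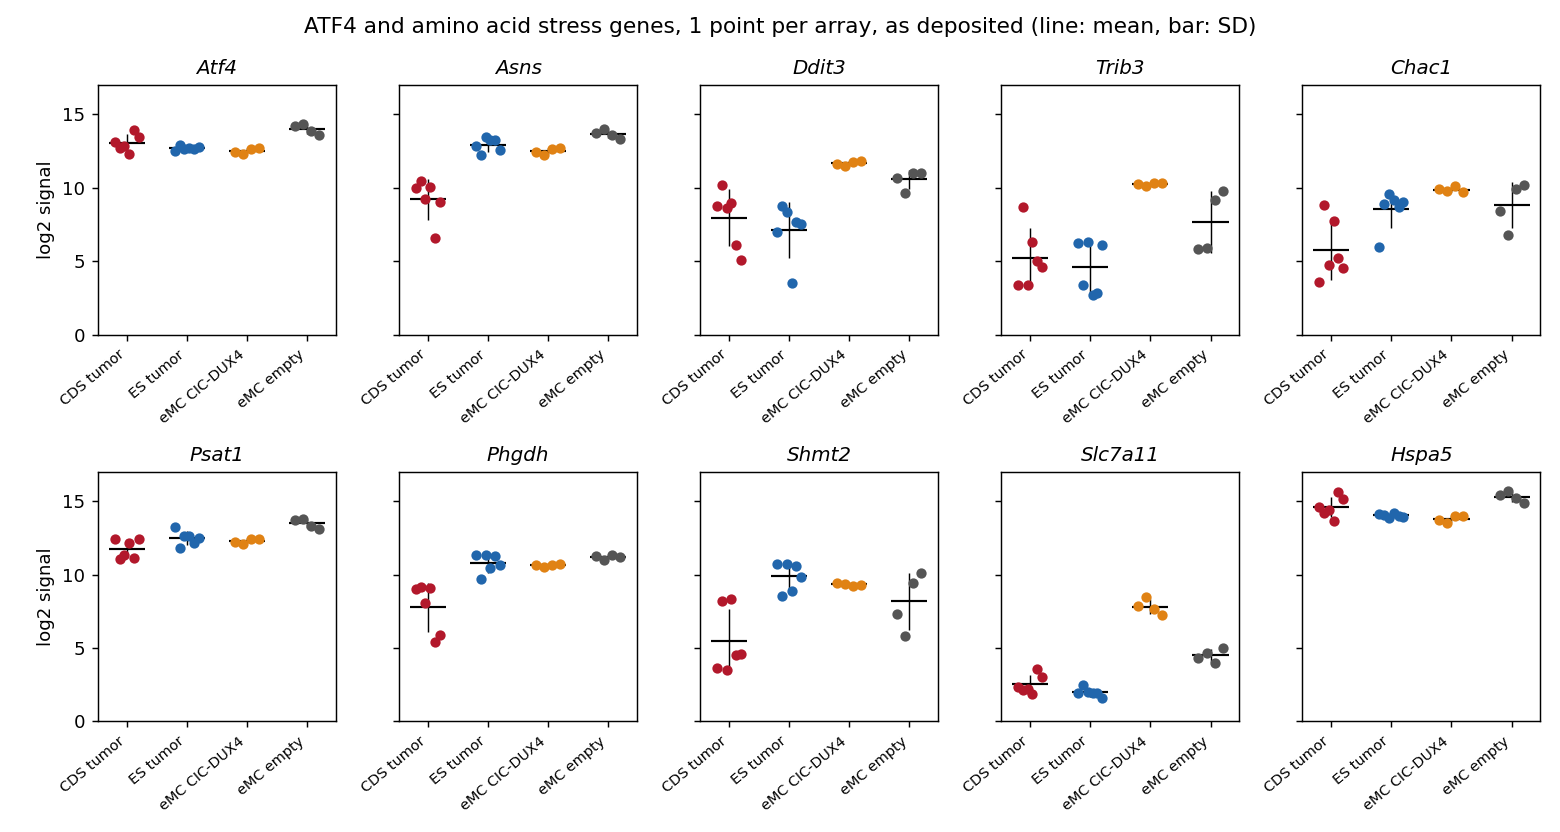
Log2 signal of the 10 genes as deposited, 1 point per array, in CDS tumors, ES tumors, eMC CIC-DUX4 and eMC empty; the line is the mean and the bar the SD. Trib3, Chac1 and Shmt2 spread widely in eMC empty, with an SD of 2.10, 1.56 and 1.95 against 0.09, 0.13 and 0.14 after quantile normalization.

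In the other pathway lists, 3 of 14 ATF4 and CHOP targets were called higher on both scales in eMC CIC-DUX4 than in eMC empty, where 7.74% of all genes were. These were the secreted hormone Fgf21 (4.81 ± 0.38 as deposited, 1.92 ± 0.26 after quantile normalization), the growth arrest gene Gadd45a (3.56 ± 0.82 and 2.46 ± 0.09) and Vegfa (3.53 ± 0.85 and 1.18 ± 0.10). The NRF2 target Nqo1 was higher (4.94 ± 0.76 and 2.34 ± 0.18), as was Aldh18a1, which makes a precursor of proline (4.58 ± 0.38 and 1.21 ± 0.30). Fgf21, Aldh18a1 and Nqo1 averaged 3.29, 3.76 and 5.30 in eMC empty, under the lowest dip of those arrays, 5.39. The size of their changes thus rests at least partly on signals near background. Vegfa and Gadd45a averaged 6.89 and 8.19 in eMC empty, where the highest dip was 8.19, so theirs may do so too. Bcat1 (-1.67 ± 0.18 and -1.88 ± 0.06) and Slc7a1 (-1.63 ± 0.18 and -1.66 ± 0.06) were lower. Among the tRNA synthetases, chaperones, bZIP factors and eIF2 regulators 0 genes were called the same way on both scales.

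CDS tumors carried less of most of the 10 genes than cultured eMC carrying the same fusion. Against eMC CIC-DUX4, 7 of 10 were called lower on both scales (Asns, Ddit3, Trib3, Chac1, Phgdh, Shmt2 and Slc7a11), against 12.7% of all genes, and 0 higher, against 4%. The 7 were also the genes called on each scale alone, against 12.8% of all genes as deposited and 20.2% after quantile normalization, and 0 were higher on either, against 5.09% and 16.8%. The other 3, Atf4, Psat1 and Hspa5, differed by 0.54 ± 0.28, -0.54 ± 0.34 and 0.80 ± 0.29 as deposited, and by 0.11 ± 0.11, -0.84 ± 0.26 and 0.01 ± 0.10 after quantile normalization. The all-gene median was -0.92 as deposited and -0.06 on the quantile scale. The excess of the 3′ over the 5′ probe set of Actb was 0.80 ± 0.36 in CDS tumors, against 0.22 ± 0.02 in eMC CIC-DUX4, with eMC empty at 0.17 ± 0.03 (log2, SD), and its part in these differences was not tested. Macrophage marker sums were 12833 to 74163 in CDS tumors, against 20111 to 25868 in eMC CIC-DUX4, with eMC empty at 21938 to 32430, so the cultures lay within the tumors' range. Lyz2, the brightest of these markers, averaged 14.29, 14.12 and 14.61 log2 in the same order. Other markers differed more. C1qa, C1qb and Mrc1 averaged 12.02, 10.30 and 12.30 in CDS tumors, against 4.74, 5.48 and 9.17 in eMC CIC-DUX4. Cd14, Cd68 and Adgre1 went the other way, at 6.13, 8.89 and 8.48 against 10.38, 11.33 and 9.38. Between CDS tumors and eMC CIC-DUX4, 3 of 8 macrophage markers tested were higher and 1 lower on both scales. Endothelial sums were 4479 to 8753 against 1478 to 1983, without overlap. Of 6 endothelial markers tested, 3 were higher on both scales and 0 lower. The part of host cells in these differences was not tested.

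Trib3 had a lowest, median and highest of 3.36, 4.78 and 8.68 in CDS tumors, against 10.12, 10.25, 10.32 and 10.34 in eMC CIC-DUX4. All 6 tumors were below all 4 cultures. The difference was -5.05 ± 1.00 as deposited (-4.13 relative to the all-gene median, adjusted p = 0.00290) and -4.18 ± 0.53 after quantile normalization. Ddit3 differed by -3.71 ± 0.83 and -3.47 ± 0.41 and Chac1 by -4.08 ± 0.99 and -2.82 ± 0.38, both without overlap as deposited.

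Asns differed by -3.28 ± 0.61 as deposited and -3.47 ± 0.26 after quantile normalization, Phgdh by -2.87 ± 0.79 and -2.53 ± 0.25, and Shmt2 by -3.86 ± 1.07 and -2.53 ± 0.38. Slc7a11 was below the dip in every CDS tumor, with 1.90, 2.28 and 3.60 as lowest, median and highest against 7.26 to 8.49 in eMC CIC-DUX4. The fitted difference was -5.26 ± 0.83 as deposited and -3.25 ± 0.20 after quantile normalization, with no fold given. Without CDS tumors 5 and 6 the same 7 genes were called as deposited, with smaller differences for Ddit3 (-2.53) and Phgdh (-1.81). Without CDS tumor 2 and eMC CIC-DUX4 5 and 6, Phgdh (-3.19, adjusted p = 0.115) and Shmt2 (-4.33, adjusted p = 0.0824) were not called as deposited, while all 7 were called after quantile normalization.

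Against eMC empty, whose arrays also serve as controls for the other comparisons with them, CDS tumors had 5 genes lower on both scales (Asns, Ddit3, Psat1, Phgdh and Slc7a11), against 4.25% of all genes, and 0 higher, against 12.8%. The lower genes were the same 5 as deposited (5.74% of all genes), and 8 after quantile normalization, which added Trib3, Chac1 and Shmt2 (19.2%). None was higher as deposited, against 14.4%, or after quantile normalization, against 17.6%. Asns had a lowest, median and highest of 6.60, 9.60 and 10.46 in CDS tumors against 13.32, 13.59, 13.76 and 13.98 in eMC empty, a gap with no overlap. The difference was -4.44 ± 0.60 (adjusted p = 2.49e-05) and -3.77 ± 0.26. Phgdh differed by -3.45 ± 0.80 and -3.34 ± 0.26, Ddit3 by -2.62 ± 0.88 and -2.47 ± 0.42, and Psat1 by -1.73 ± 0.36 and -1.23 ± 0.26. Slc7a11 was below the dip in both groups, so its fitted -1.95 ± 0.50 and -4.24 ± 0.19 give no fold. Without CDS tumors 5 and 6, Atf4 (-1.27) and Hspa5 (-1.07) were also called lower as deposited, and Ddit3 was -1.44.

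ES tumors, set against the same eMC empty arrays, had Ddit3, Trib3 and Slc7a11 lower on both scales, against 8.28% of all genes, and 0 higher, against 14.6%. As deposited Atf4, Psat1 and Hspa5 were lower too (6 in all, against 10.9% of all genes), and after quantile normalization Chac1 (4 in all, against 19%). The top percentile of log2 signal began at 13.63 to 14.03 in ES tumors and at 14.25 to 15.07 in eMC empty. The part of this shift in the calls of the bright genes Atf4, Psat1 and Hspa5 was not tested. The count of higher genes was 0 on each scale, against 29.9% as deposited and 17.4% after quantile normalization, and Slc7a11 was below the dip in both groups, so its fit gives no fold. Ddit3 had 3.49, 7.59 and 8.79 as lowest, median and highest in ES tumors against 9.64 to 11.04 in eMC empty, and did not overlap. It differed by -3.45 ± 0.88 (adjusted p = 0.00687) and -4.34 ± 0.41. Asns in ES tumors was close to eMC empty after quantile normalization (-0.08 ± 0.25, adjusted p = 0.814) and -0.73 ± 0.24 as deposited, and Phgdh (-0.44 ± 0.33 and -0.75 ± 0.42) and Shmt2 (1.71 ± 0.79 and -0.21 ± 0.53) were not called.

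**Figure D4:**
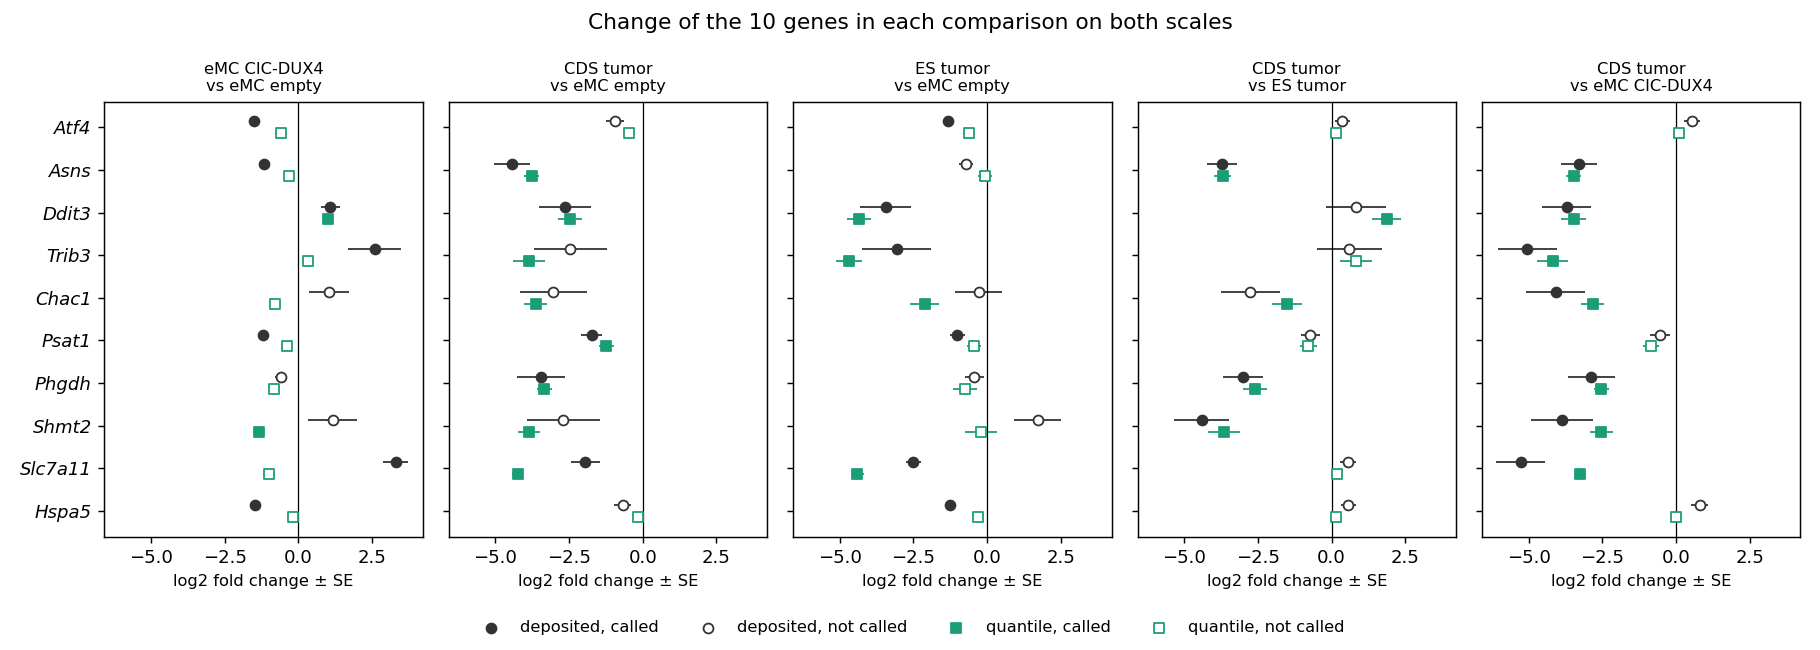
Log2 fold change with its SE of each of the 10 genes in the 5 comparisons, as deposited (circles) and after quantile normalization (squares), filled where called. Asns is called in each comparison that holds CDS tumors, between -4.44 and -3.28, and the scales lie farthest apart for Slc7a11 in eMC CIC-DUX4 against eMC empty, at 3.31 and -0.99.

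Ordered by mean level after quantile normalization, Asns ran CDS tumors 9.38 ± 0.56, eMC CIC-DUX4 12.85 ± 0.02, ES tumors 13.08 ± 0.56 and eMC empty 13.16 ± 0.02 (SD, n = 6, 4, 6 and 4). The step of CDS tumors to the rest exceeded the spread, and ES tumors overlapped both cultures. Ddit3 ran ES tumors 6.54 ± 0.84, CDS tumors 8.40 ± 0.92, eMC empty 10.88 ± 0.11 and eMC CIC-DUX4 11.88 ± 0.04, with overlap between the tumor types only. Hspa5 had means of 14.27, 14.40, 14.41 and 14.59 in ES tumors, eMC CIC-DUX4, CDS tumors and eMC empty, and the range of CDS tumors overlapped those of all 3 other groups, which did not overlap each other.

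After quantile normalization 2 loose groups stood out among the 10 genes over the 20 arrays, and Atf4, Hspa5 and Chac1 did not fall into just 1 of them. Pearson's r was 0.94 between Asns and Phgdh, 0.90 between Asns and Shmt2 and 0.94 between Phgdh and Shmt2, and 0.92 between Ddit3 and Trib3 and between Trib3 and Slc7a11. Atf4 had an r of 0.10 with Asns and 0.79 with Hspa5, and Chac1 had 0.77 with Asns and 0.82 with Slc7a11. These are descriptions over arrays that share group differences and a normalization. With each group's mean removed, r was 0.58 for Asns and Phgdh, 0.35 for Asns and Shmt2 and 0.74 for Phgdh and Shmt2. It was 0.44 for Ddit3 and Trib3, 0.10 for Trib3 and Slc7a11 and 0.09 for Asns and Psat1. Within the 6 ES tumors Phgdh and Shmt2 had an r of 0.98, and within the 6 CDS tumors 0.01.

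**Figure D5:**
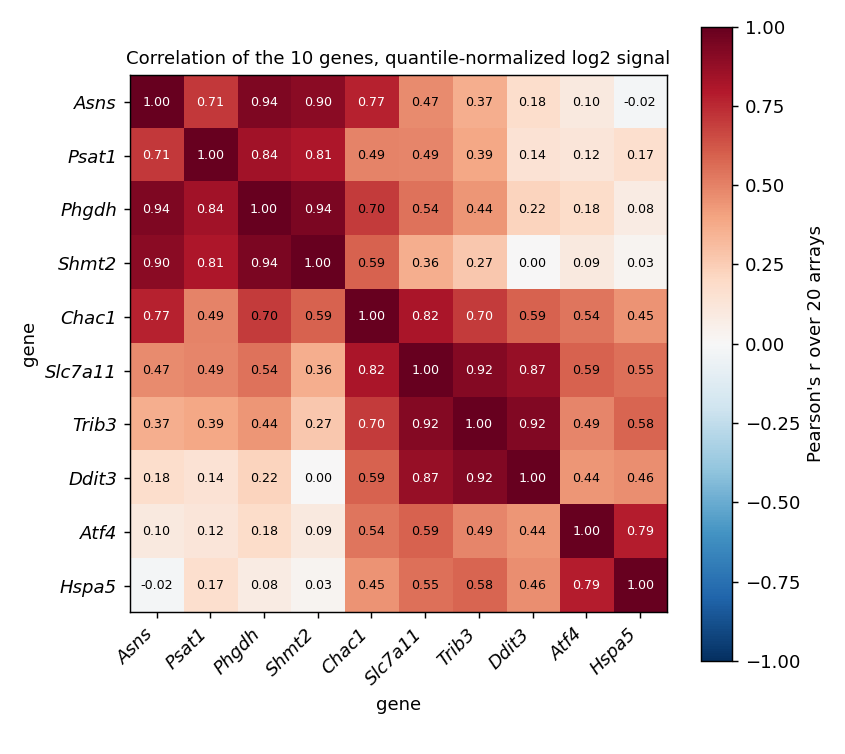
Pearson's r between the 10 genes over the 20 arrays after quantile normalization, with colour from -1 to 1. Asns, Psat1, Phgdh and Shmt2 form a block at 0.71 to 0.94, and Ddit3, Trib3 and Slc7a11 a block at 0.87 to 0.92.

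The genes most like Asns over the 20 arrays, among 12343, were Tgif1 with an r of 0.97, and Trim25, Rbpms2 and Phf10 with 0.96 each. On the deposited scale r was 0.95 for Trim25 and Phf10, 0.66 for Tgif1 and 0.70 for Rbpms2. Those most like Hspa5 were Calr, an endoplasmic reticulum chaperone, with 0.90, and Stt3a, a subunit of the enzyme that attaches sugars to proteins, Zscan22 and Tmem185a with 0.86. Calr and Stt3a had 0.98 and 0.96 as deposited, and Zscan22 and Tmem185a -0.56 each.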

How the data were processed

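Gene expression was measured on 20 Affymetrix arrays. The deposited values are log2 signals made with MAS5, per the submitters' processing notes; which version and which settings were used is not given in the sources used here. The 2% trimmed mean of linear signal was 500.1 to 500.3 on every array. Linear signals received an offset of 1.42385 (0.25 of the median of array medians, 5.69542) and were returned to log2, in which fold changes understate dim genes. Of 45141 probe sets, 104 controls were left out, 28898 had 1 gene symbol, 551 several and 15588 none in the platform annotation, and only those with 1 were named. Probe sets above their array's median on at least 4 arrays were kept (26895), and 12343 genes were tested by the kept probe set of highest mean. Groups were compared with limma 3.58.1 (R 4.3.3, data.table version 1.17.8) on the arrays of the 2 groups, with a trended prior, and p-values were adjusted by Benjamini-Hochberg; every adjusted p in the text is limma's. Tables and figures used Python 3.11.15 and pandas 2.3.3. Quantile normalization was the second scale. The dip was found with a bandwidth of 0.35 and at least 5% of probe sets on each side. The fits were also run on simulated data drawn with the spread of quantile-normalized values and without shifts between arrays. That run therefore cannot speak for the fits as deposited. No 2 arrays held identical values. Named genes were all 10 genes, up to 3 per list and comparison with the largest change among those called on both scales (otherwise the brightest gene), and the 4 genes most correlated with Asns and with Hspa5. No fold bound is given for Slc7a11 because the dip of some arrays lies above its brightest group mean. The genes and lists were chosen with earlier results of these data known. Settings without CDS tumors 5 and 6, and leave-outs combined with quantile normalization, were added after seeing the data.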

Additional observations from a re-analysis of the deposited data

Results flagged for a closer look

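In 3 of 40 combinations of gene and group, 1 tumor lay apart from the rest of its group in deposited log2 signal; chance alone gives about 1 in 20. Asns was 6.60 in CDS tumor 5, against 9.02 to 10.46 in the other 5 CDS tumors, and after quantile normalization that tumor had 9.81, inside the range of the others (8.55 to 10.06). Ddit3 was 3.49 in ES tumor 48, against 6.96 to 8.79 in the other ES tumors, and after quantile normalization 5.45, against 6.05 to 7.92. Chac1 was 5.96 in ES tumor 41, against 8.67 to 9.55, and after quantile normalization 5.79, against 7.68 to 8.61.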

How the results depend on the processing

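As deposited, 7, 5, 6, 3 and 7 of the 10 genes were called when eMC empty was the control for eMC CIC-DUX4, for CDS tumors and for ES tumors, then between CDS and ES tumors, and last between CDS tumors and eMC CIC-DUX4. Quantile normalization gave 2, 8, 4, 5 and 7, and a common median per array 0, 3, 2, 5 and 1; in the first of these comparisons limma then called 0 of all genes, with 2778 at an unadjusted p under 0.05. For eMC CIC-DUX4 against eMC empty, fitting all 4 groups gave 4, and leaving out the arrays of high median gave 4, or 1 after quantile normalization; leaving out eMC empty 5 after quantile normalization also gave 1. An offset of 16 gave 3 for CDS tumors against eMC empty. In eMC, direction turned for Ddit3 with a common median (-0.53), and for Shmt2 (-1.33) and Slc7a11 (-0.99) with quantile normalization; the cause was not tested. Calls over all genes were 90.9% higher as deposited and 62.8% after quantile normalization for eMC CIC-DUX4 against eMC empty, 71.4% and 47.8% for CDS tumors against eMC empty, and 73.3% and 47.9% for ES tumors against eMC empty. Leaving out 1 array at a time gave 5 to 7, 4 to 6, 4 to 6, 3 to 4 and 5 to 7 genes as deposited, and 1 to 3, 8, 4, 4 to 5 and 7 after quantile normalization. Trib3 lost its call in 6 of 8 such fits and Ddit3 without eMC empty 5 (0.77) in eMC CIC-DUX4 against eMC empty. Ddit3 lost it in 7 of 10 in CDS tumors against eMC empty, Trib3 in 5 and Psat1 in 4 of 10 in ES tumors against eMC empty, and Phgdh in 4 and Shmt2 in 3 of 10 in CDS tumors against eMC CIC-DUX4. The replicate block (pairing by number) gave 5, 4 and 9 genes as deposited, and 3, 8 and 7 after quantile normalization, for eMC CIC-DUX4 and then CDS tumors against eMC empty, and last between CDS tumors and eMC CIC-DUX4. The 9 were 7 lower and 2 higher, Atf4 (1.32) and Hspa5 (1.77), in a fit that called 716 of all genes higher and 6709 lower. As deposited, correlations of same-numbered deviations were 0.41, -0.18 and 0.41 in the first and -0.21, 0.51 and 0.06 in the second. They were 0.33 and 0.13 in the third, which has 2 pairs. In the first and in the second, 3 of 6 samples correlated best with their own number. So few pairs cannot decide whether the numbers pair the samples, and the labels do not say what the numbers mean. No paired analysis was possible for the comparisons with ES tumors because they share no replicate numbers. Signals below the dip limit Slc7a11 in tumors and eMC empty, and Shmt2, Trib3 and Chac1 in most CDS tumors. They also limit Trib3 in eMC empty and ES tumors (above the dip in 2 of 4 and 3 of 6) and Shmt2 in eMC empty (2 of 4).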

Other observations

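Among partner and related bZIP factors, 3 of 7 were called lower on both scales in CDS tumors than in eMC CIC-DUX4, against 12.7% of all genes. Atf3, a stress-induced factor, differed by -4.34 ± 0.99 as deposited and -4.30 ± 0.63 after quantile normalization, Cebpb by -2.98 ± 0.66 and -2.96 ± 0.43, and Nupr1 by -2.39 ± 0.79 and -1.94 ± 0.47. In the same comparison 5 of 8 NRF2 targets were lower, including Nqo1 (-4.31 ± 0.96 and -3.30 ± 0.34) and the glutathione synthesis subunit Gclm (-3.88 ± 0.93 and -3.95 ± 0.36), while 0 of 17 cytosolic tRNA synthetases were called on both scales and 3 were lower after quantile normalization alone. Fgf21 and Gadd45a, both higher in eMC CIC-DUX4 than in eMC empty, were lower in CDS tumors than in eMC CIC-DUX4. Their differences were -5.40 ± 0.83 and -4.57 ± 1.22 as deposited. These comparisons share the eMC CIC-DUX4 arrays, and Fgf21 averaged 2.70 in CDS tumors, under their lowest dip of 4.02. Atf3, Nqo1, Gclm and Gadd45a averaged 5.71, 5.93, 7.88 and 7.17 in CDS tumors, under the highest dip there, 8.09. The size of their changes may thus rest partly on signals near background. Vegfa was higher in CDS tumors (2.53 ± 0.40 and 2.90 ± 0.28).

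In ES tumors against eMC empty, 3 of 10 serine and one-carbon enzymes were higher on both scales, against 14.6% of all genes, including the cytosolic Shmt1 (4.70 ± 0.66 and 2.21 ± 0.39) and Gpt2 (4.08 ± 0.76 and 2.20 ± 0.41), and 1 was lower, against 8.28%, the mitochondrial folate enzyme Aldh1l2 (-4.39 ± 1.06 and -4.57 ± 0.58). Of 7 bZIP factors 5 were lower, against the same 8.28%, including Cebpb (-2.54 ± 0.33 and -2.30 ± 0.40). Aars, alanyl-tRNA synthetase, was the only 1 of 17 synthetases called on both scales (-2.08 ± 0.23 and -2.33 ± 0.25).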
